A study of Mus musculus with 8 samples.

Results

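The control lungs were the 4 libraries that the labels title Control 1 to Control 4, of 8 libraries in the series, and the description below covers which genes they expressed most, how the markers of each cell type ranked, and which genes differed among the 4. Each control was RNA of whole lung from a C57BL/6 mouse fetus of embryonic stage E18.5, shortly before birth. The other 4 libraries came from fetuses of the same strain and age whose trachea had been tied (tracheal occlusion, TO), and their values were not used. No allele, transgene or drug is named for the controls, and the methods give progesterone to the operated dams without saying whether control fetuses shared them. Neither the labels nor the methods say whether the control fetuses were operated on without occlusion, were littermates of occluded fetuses, or were of one sex, and a control library is taken here as 1 fetal lung because nothing states pooling. The specimen names of controls 1 and 4 share a number whose meaning is not given.

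The lung at this age is in the saccular stage, when thin alveolar type 1 cells that will carry gas exchange and alveolar type 2 cells that make surfactant differentiate from a common epithelial progenitor. Surfactant is a film of phospholipid and specialised proteins that keeps the airspaces open at the first breath, and fibroblasts around the sacs lay down collagen and elastin for the septa that follow. The lung is still filled with fluid that the epithelium secretes, the capillary bed is expanding, and blood within the vessels brings red cell transcripts into any whole-organ sample.

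Between 22822261 and 32382284 read pairs fell on genes in each control, and 15560 to 15798 genes reached 1 CPM, the unit of counts scaled to equal library totals. Protein-coding genes of the nuclear genome held 95.9% to 96.7% of the counts and mitochondrial genes 1.11% to 1.61%. The counts were spread over many genes: the 10 most counted genes held 4.30% to 5.35% of the counts, and the 1296 most abundant genes were needed to match all the others together. Levels of different genes are given as TPM, which divides each count by the length of the gene's exons before scaling to an equal total, and levels of 1 gene across controls as CPM scaled by the trimmed mean of M-values (TMM), in the order control 1, 2, 3 and 4. Errors are SDs over the 4 controls. These controls form a single group, so no test between groups was possible, and a p-value is given nowhere. Intervals and limits from counts cover counting error only.

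Sftpc, the gene of surfactant protein C and the marker that defines alveolar type 2 cells, was the most abundant transcript of the control lung at 27541 ± 6620.2 TPM, with 27366, 36656, 25119.7 and 21022 TPM. It lies on chromosome 14, 70520949 to 70524081, minus strand (GRCm38, ENSMUSG00000022097.4), and even its lowest control was above the highest control of the next gene, the mitochondrial cytochrome oxidase gene mt-Co1 at 17134 ± 975 TPM. Eef1a1, which delivers transfer RNA to the ribosome, followed at 11692 ± 1176 TPM. The adult globins Hbb-bs and Hba-a1 came next at 9832 ± 1464 TPM and 6290.0 ± 1681 TPM. Ranges of Eef1a1 and Hbb-bs overlapped, as did those of each later pair of neighbours among the 25 highest genes, although Hbb-bs was above Hba-a1 in all 4 controls. Globins and Eef1a1 have near-identical copies whose shared reads were not counted, which makes their levels uncertain.

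Below them stood the protein-synthesis genes that every growing tissue uses and a few genes that mark the lung. The 86 cytoplasmic ribosomal protein genes summed to 9.42% ± 0.586 of all TPM, led by Rps15 at 3969.8 ± 394 TPM and Rps3a1 at 3837 ± 246 TPM. The 4 surfactant protein genes summed to 3.05% ± 0.711 and the 8 globins to 1.81% ± 0.340. Mfap4, a microfibril protein of elastic fibres, ranked 11 at 3804 ± 728 TPM. H19, the imprinted noncoding RNA that is abundant in fetal tissues, ranked 16 at 3425 ± 660.0 TPM. Eln, which encodes elastin, ranked 24 at 2465 ± 1289.7 TPM, and Scgb3a2, a secretory protein of the airway epithelium, ranked 27 at 2386 ± 604 TPM. Sftpb, whose protein spreads surfactant on the air surface, ranked 32 at 2135 ± 553 TPM. These ranks leave out genes with under 200 exon bases, because the 57-base Gm23935 and the 78-base Gm10736, both shorter than a 150-base read, would otherwise rank among the highest on length alone.

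**Figure D1:**
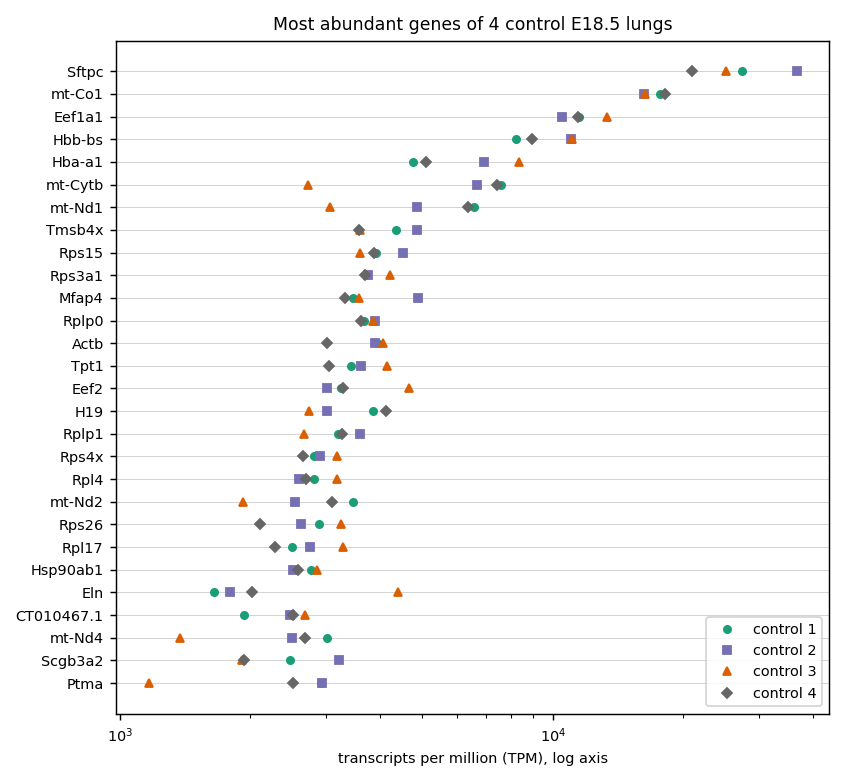
TPM (log axis) of the 28 most abundant genes with at least 200 exon bases, 1 point per control. Sftpc stands highest, with its 4 controls between 21022 and 36656 TPM, and the points of Eln and Ptma show control 3 away from the other 3 controls.

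Among 29 lists of marker genes for cell types and neighbouring tissues, alveolar type 2 cells had the highest median level, 274 TPM over 17 genes, and they held that place in each control. The first place depended on the gene length used: with the length of the longest transcript, alveolar type 1 cells stood first. Alveolar type 1 cells followed at 232 TPM, then genes shared by all epithelium at 208, matrix fibroblasts at 176 and blood vessel endothelium at 135. The order over lists is an order of transcript levels and not of cell numbers, because in whole-lung RNA fewer cells of a type and less RNA per cell cannot be told apart. The labelled tissue carried its defining markers: Nkx2-1, the transcription factor of lung epithelium, stood at 749 ± 110.0 TPM, and Tbx4, a transcription factor of lung mesenchyme, at 176 ± 19.6 TPM.

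The alveolar epithelium was marked by high levels of nearly every listed gene. Of the type 2 genes, Slc34a2, the phosphate transporter of these cells, stood at 920.2 ± 209 TPM, Sftpa1 at 631 ± 70.5 TPM, the lamellar body lipid pump Abca3 at 193 ± 9.64 TPM and the lamellar body protein Lamp3 at 428 ± 45.2 TPM. Sftpd, a collectin of innate defence, was lower at 172 TPM and was the only type 2 marker that differed 4-fold or more among controls, at 43.8, 76.2, 284 and 63.2 CPM. Control 3 was above the rest for Sftpd, although Sftpc itself was highest in control 2. Of the type 1 genes, Ager, the receptor for advanced glycation products, stood at 1232 ± 304 TPM, Hopx at 372 ± 57.8 TPM, Pdpn (podoplanin) at 70.8 ± 17.6 TPM and the water channel Aqp5 at 44.9 ± 15.8 TPM. For 12 of 16 type 1 genes control 3 was the highest control, as it was for 35.9% of all genes, though it was at least 2-fold above every other control for Clic5 alone and at least 2-fold below for Igfbp2 alone, and the type 1 list had mean log2 CPM values of 7.53, 7.70, 7.95 and 7.52. That list spanned 0.43 log2 units, less than 2-fold.

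In the airways the secretory genes were uneven. Besides Scgb3a2, the club cell protein Scgb1a1 stood at 506 ± 159 TPM and the detoxifying enzyme Cyp2f2 at 175 ± 33.1 TPM, while Scgb3a1 was at 4.74, 5.36, 54.2 and 7.94 CPM, with control 3 at least 2-fold above each other control. Ciliated cells were present at a median of 34.4 TPM, with the ciliary master regulator Foxj1 at 93.5 ± 9.51 TPM. Basal cell genes were low apart from Krt15 at 250.2 ± 77.9 TPM. The defining basal genes Krt5 and Trp63 averaged 10.1 and 1.26 TPM, and control 1 was the highest for both, as described below. Neuroendocrine genes had a median of 1.55 TPM, led by Uchl1 at 32.4 ± 12.2 TPM, the catecholamine enzyme Ddc at 15.9 ± 3.67 TPM and the neuropeptide gene Calca at 10.9 ± 0.758 TPM. Calca was among the steadier of these genes, at 5.17, 4.72, 5.24 and 5.20 CPM.

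**Figure D2:**
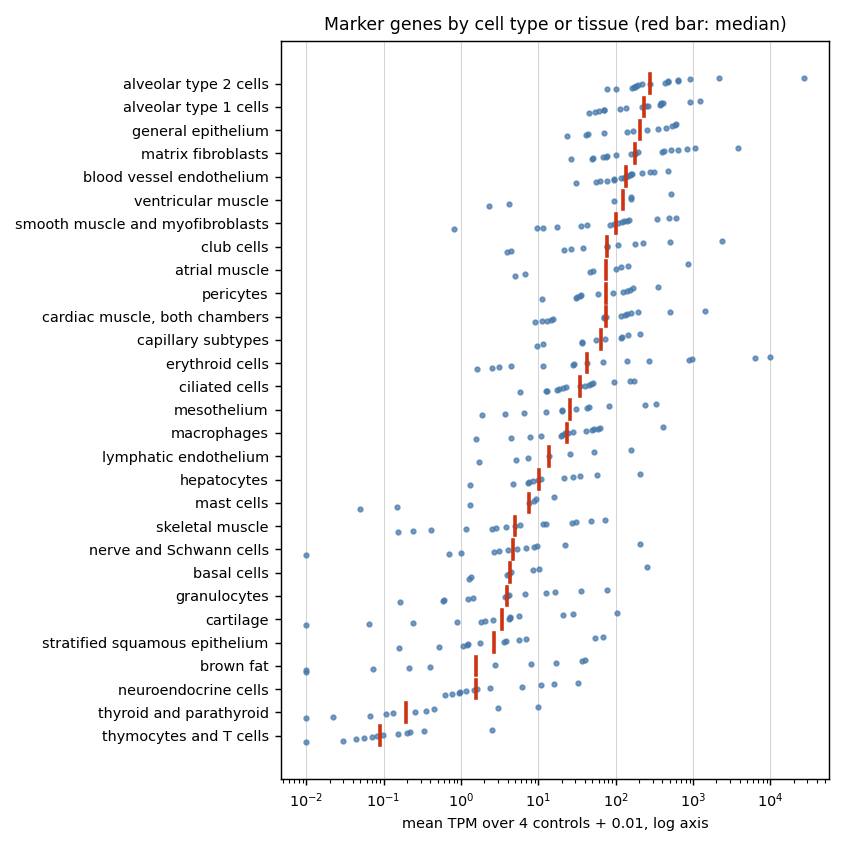
Mean TPM over the 4 controls (log axis, with 0.01 added to each value) of every member of the 29 cell type and tissue lists, lists ordered by their median (bar). The median falls from 274 TPM for alveolar type 2 cells to 0.0792 TPM for thymocytes and T cells.

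Matrix fibroblast transcripts were abundant, and the mean over their list was steady. The 18 matrix fibroblast genes had mean log2 CPM of 7.98, 7.98, 7.96 and 7.98, a span of 0.02, the smallest of the 42 lists with TMM scaling. That place depended on the scaling. The SD of the list mean was 0.00981 with TMM and 0.0840 with library size only, where capillary subtypes had a smaller SD of 0.0401. Col1a1 and Col3a1, the main fibrillar collagens, stood at 1043 ± 129.9 TPM and 830.0 ± 102 TPM, and Tcf21, a transcription factor of lung fibroblasts, at 392 ± 50.8 TPM. The single genes were no steadier than others: their median range over the controls was 0.62 log2 units, as it was over all genes with a mean of at least 1 CPM. Of them 2 (11.1%) differed 4-fold or more, against 6.21% of all genes. These were the signalling ligand Wnt2 at 53.5, 60.4, 14.95 and 57.8 CPM and the amino acid transporter Slc7a10 at 13.7, 23.6, 5.57 and 18.3 CPM, and control 3 was the lowest for both. Smooth muscle and myofibroblast genes had a median of 101 TPM, with the actin Acta2 at 604 ± 209 TPM, the smooth muscle myosin Myh11 at 122 ± 30.1 TPM and the receptor Pdgfra at 107 ± 18.9 TPM. Mean log2 CPM spanned 0.63 for the smooth muscle list, 0.58 for pericytes and 0.99 for mesothelium. Pericyte genes had a median of 74.8 TPM, with Pdgfrb at 139.8 ± 21.5 TPM. Mesothelial genes had a median of 25.6 TPM, with mesothelin (Msln) at 328 ± 122 TPM and the transcription factor Wt1 at 7.18, 6.69, 16.1 and 14.1 CPM, higher in controls 3 and 4 than in both others.

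Some low values in these lists follow from how reads were counted. A read pair over exons of more than 1 gene was left out of the both-strand counts used here, 5.20% to 5.48% of all read pairs. Tagln, a smooth muscle protein, shares 67.9% of its exon bases with an antisense gene, and it averaged 11.5 counted reads against 2158 when 1 strand was counted alone. The metallothionein Mt2 went from 1.75 to 690.5 reads in the same way, and the atrial peptide gene Nppa from 962 to 5214. Igf2, the fetal growth factor, shares 64.5% of its exon bases, mostly with a gene on its own strand, and its 28.4 TPM is too low by an unknown amount. Of 612 genes listed or named, 7 shared most of their exon bases with another gene, and 158 shared any.

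Vessel genes were steady, with a median range of 0.45 log2 units over the single genes. Cdh5 (VE-cadherin), Cldn5 and Pecam1 stood at 471 ± 43.8 TPM, 308 ± 33.5 TPM and 281 ± 33.9 TPM, and the mean log2 CPM of the 18 vessel genes spanned 0.18. The capillary genes divided: Apln, the ligand made by specialised capillary cells, varied little at 28.4, 35.4, 34.6 and 30.8 CPM, while its receptor gene Aplnr, a marker of general capillary cells, was 168, 126, 37.8 and 141 CPM, and the carbonic anhydrase Car4 was 1.37, 2.82, 14.2 and 2.70 CPM. Control 3 was the lowest for Aplnr and the highest for Car4. Lymphatic genes had a median of 13.5 TPM, with the hyaluronan receptor Lyve1 at 157 ± 17.5 TPM and the lymphatic master regulator Prox1 at 11.8, 7.35, 28.7 and 19.5 CPM.

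Red cell and macrophage genes led the blood and immune lists. Besides the adult globins, the embryonic globin Hbb-y was still detected at 4.87, 21.2, 7.61 and 14.5 CPM. Macrophage genes had a median of 23.1 TPM, with the complement gene C1qb at 58.3 ± 8.01 TPM and the growth factor receptor Csf1r at 23.9 ± 2.97 TPM. Lyz2, at 405 ± 99.5 TPM, is made by type 2 cells as well as by macrophages. Granulocyte genes had a median of 3.94 TPM, led by S100a9 at 77.3 ± 24.8 TPM, and the mean over its members in log2 CPM was lowest in control 4, with 2.42, 2.14, 2.11 and 1.36. Thymocyte and T cell genes were near the floor: 7 of 12 averaged under 0.1 TPM, Ptcra had no read in any control, and Lck was the highest at 2.47 ± 0.532 TPM. A count of 0 allows up to 0.0951 to 0.128 CPM, depending on the library. Nerve genes were low, with Sox10, the Schwann cell factor, at 3.08 ± 0.365 TPM.

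By function, genes of the matrix stood highest. Collagen and elastic fibre genes had a median of 559 TPM, and Sparc, a collagen-binding protein, was steady at 1703, 1761, 1853 and 1666 CPM. Enzymes and carriers of surfactant lipid had a median of 79.5 TPM, and their mean log2 CPM spanned 0.07, with fatty acid synthase (Fasn) at 221 ± 32.7 TPM and the desaturase Scd2 at 902 ± 49.7 TPM. Among lung transcription factors the highest after Nkx2-1 were Tbx2 at 431 ± 98.2 TPM, Tcf21 and Etv5 at 274 ± 63.9 TPM, while the airway factor Sox2 and the distal tip factor Sox9 stood at 17.5 ± 5.47 TPM and 33.3 ± 5.62 TPM. Vegfa, the angiogenic factor, was the highest of the listed growth factors as counted, at 564 ± 166 TPM, followed by Vegfd at 176 ± 53.6 TPM and Shh, the epithelial signal to mesenchyme, at 104 ± 29.4 TPM. The place of Igf2 among them is unknown, because its counted level is too low for the reason given above. Of the channels that move lung fluid, the sodium channel subunit Scnn1a stood at 174 ± 42.1 TPM and the chloride channels Ano1 and Cftr at 136 ± 27.1 TPM and 20.2 ± 3.44 TPM. Mest and Grb10, imprinted genes of fetal growth, stood at 685 ± 154 TPM and 412 ± 57.2 TPM.

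Most genes differed little among the controls. Over the 15740 genes with a mean of at least 1 CPM, the median distance between the highest and lowest control was 0.62 log2 units. A gene was called varying when that range reached 2 log2 units, or 4-fold, and 977 genes did (6.21%), while 4113 genes (26.1%) reached 2-fold. The share fell with level, from 17.8% of genes at 1 to 5 CPM to 1.01% of genes at 100 CPM or more, where 25 of 2473 genes varied. None of the 81 ribosomal protein genes over 1 CPM varied. The zinc transporter Slc39a1 had the smallest range among genes of at least 50 CPM, at 83.0, 83.8, 83.6 and 83.6 CPM, followed by the peroxisome biogenesis gene Pex19 at 86.4, 84.9, 86.7 and 85.6 CPM, the growth-control kinase Rps6kb1 at 79.2, 80.9, 79.2 and 79.5 CPM and the protein kinase A subunit Prkaca at 124, 125, 128 and 125 CPM.

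Control 3 stood apart from the others. Its mean distance to the other 3 libraries, over log2 CPM of all 15740 genes, was 106 against 81.6 to 89.8 for the rest, and it held 40.9% of all squared deviation. The biological coefficient of variation from edgeR was 0.313 with all 4 controls and 0.241 without control 3, and the number of genes varying 4-fold or more was 367 without control 3. Results that rest on control 3 are therefore given with the values of the other 3 controls. Control 3 also had the most counted reads, and its deviation from the mean of the 4 correlated across genes with exon length (r = 0.12) and GC content (r = -0.094), where genes are not independent replicates. Both correlations were larger in size for control 2, at r = -0.18 for exon length and r = 0.0998 for GC content. Whether these properties had a part in the differences below was not tested.

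A control was called apart for a gene when it was at least 2-fold above, or at least 2-fold below, every other control, and a pair of controls when both were at least 2-fold from both others. This rule was chosen after the data had been seen. It named 738 genes lower and 372 higher in control 3 (949 and 265 when scaled by library size only), 197 lower and 37 higher in control 2, 113 lower and 82 higher in control 1, and 51 lower and 26 higher in control 4. As shares of the 15740 genes, these were 4.69% and 2.36% for control 3, 1.25% and 0.235% for control 2, 0.718% and 0.521% for control 1, and 0.324% and 0.165% for control 4. Controls 3 and 4 were together higher for 229 genes (1.45%) and lower for 26 (0.165%), and controls 2 and 3 were together higher for 40 (0.254%) and lower for 30 (0.191%). At the level of whole lists, mean log2 CPM spanned less than 1 unit for 12 of the 15 epithelial, mesenchymal and endothelial lists, and the spans above 2 units belonged to hepatocytes (7.40), sex-linked transcripts (5.498), ventricular muscle (4.56), squamous epithelium (4.40), atrial muscle (3.89), cardiac muscle (3.75), skeletal muscle (2.72), brown fat (2.54) and basal cells (2.24).

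**Figure D3:**
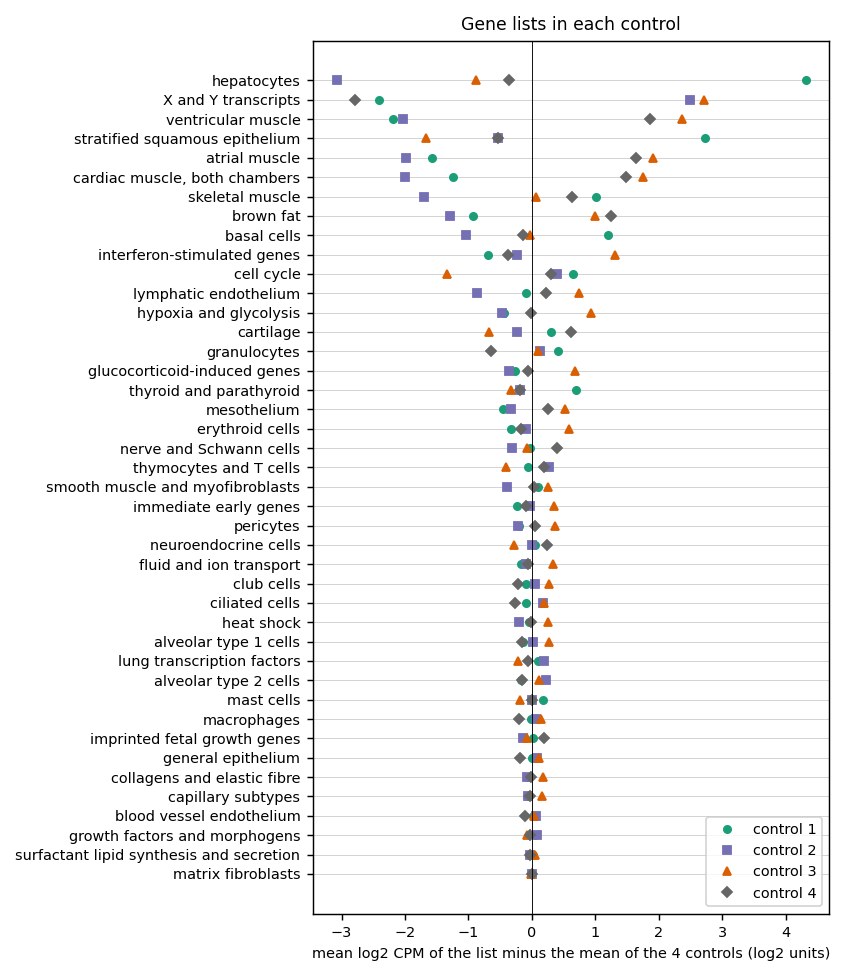
Mean log2 CPM of each of the 42 gene lists in each control, as the difference from the mean of the 4 controls (log2 units). Lists are ordered by their span; hepatocyte genes span 7.40 units and matrix fibroblast genes 0.02.

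The 4 controls were of both sexes by their transcripts. Xist, the noncoding RNA that silences 1 X chromosome in females, was 1806, 1.46, 1.87 and 1963 CPM, and the Y-linked genes Ddx3y, Eif2s3y, Kdm5d and Uty were high where Xist was low, with Ddx3y at 0.128, 94.5, 129 and 0.0397 CPM and Kdm5d at 0.0854, 82.5, 76.8 and 0.0397 CPM. Controls 1 and 4 thus carried the female pattern and controls 2 and 3 the male one, with no overlap. The X-linked partners of the Y genes, chosen after their values were seen, were lowest in control 2, such as Eif2s3x at 106, 49.6, 94.5 and 111 CPM and Ddx3x at 601, 362, 538 and 569 CPM. Controls 1 and 4, which also share a specimen number, were the closest pair of libraries at a distance of 72.7. Sex, that number and any litter cannot be told apart in these 4 libraries.

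Heart muscle genes separated the controls in another way. Myh6, the myosin of atrial and embryonic heart muscle, was 292, 163, 1886 and 1401 CPM, and Actc1, cardiac actin, was 181, 104, 1367 and 919 CPM. Controls 3 and 4 were together at least 2-fold above controls 1 and 2 for 15 of 15 cardiac genes, 6 of 8 atrial genes and 5 of 6 ventricular genes, where 1.45% of all genes met that rule. The giant sarcomere protein titin (Ttn) was 109.5, 28.9, 720.4 and 599 CPM, troponin T (Tnnt2) was 76.3, 63.0, 635 and 599 CPM and the stress-responsive Ankrd1 was 17.0, 9.25, 342 and 247 CPM. The highest control exceeded the lowest 11.6-fold for Myh6 and 36.9-fold for Ankrd1.

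The widest gaps within the heart lists were those of genes of single chambers. The atrial growth factor Bmp10 was 0.256, 0.0634, 151 and 81.6 CPM, and the atrial peptide gene Nppa was 0.427, 1.55, 77.0 and 58.8 CPM, while its relative Nppb, found by the rule on large ranges and not by a list, was 0.256, 0.0634, 47.8 and 29.1 CPM. The ventricular light chains Myl2 and Myl3 were 1.495, 5.10, 179.7 and 150.3 CPM and 2.18, 2.57, 112 and 96.6 CPM. Controls 1 and 2 were thus at 5.10 CPM or below for these 5 genes, yet both kept some Myh6, Actc1 and Myl7, the atrial light chain, at 49.98, 43.9, 217 and 243 CPM. Pulmonary veins of the mouse are known to carry a sleeve of cardiac muscle. Dkk3, Kcna5 and Lbh, which other cells also express, were the 3 members of the atrial and ventricular lists that did not meet the rule. Cox7a1 and Cox8b, which stand in the brown fat list but are also subunits of the heart and muscle form of cytochrome oxidase, were 1.24, 1.46, 8.44 and 12.3 CPM and 0.342, 0.0634, 6.01 and 8.26 CPM, and the defining brown fat gene Ucp1 had no read in any control. Whether heart tissue in the samples had a part in these values was not tested.

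Skeletal muscle genes followed the heart genes only in part. Creatine kinase (Ckm), which heart can also express, and calsequestrin (Casq1) were higher in controls 3 and 4, with Ckm at 20.3, 8.49, 129 and 77.8 CPM. The developmental skeletal myosins Myh3 and Myh8 were instead highest in control 1, at 29.0, 0.412, 1.17 and 7.55 CPM and 32.1, 0.982, 6.74 and 9.05 CPM, with the slow muscle protein Mybpc1 at 9.40, 0.127, 1.43 and 2.70 CPM. Control 2 was at least 2-fold below every other control for 7 of 11 skeletal genes over 1 CPM, against 1.25% of all genes, with skeletal actin Acta1 at 25.8, 1.997, 28.2 and 23.7 CPM.

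**Figure D4:**
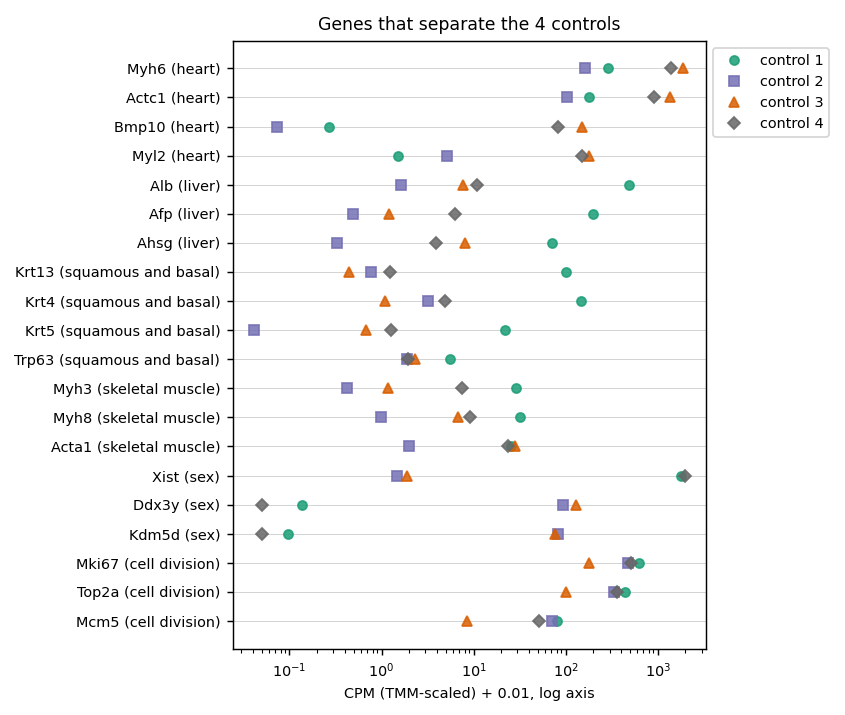
CPM (log axis, with 0.01 added to each value) in each control of 20 genes that mark heart, liver, squamous epithelium, skeletal muscle, sex and cell division. Heart genes are high in controls 3 and 4, liver and squamous genes in control 1, Xist in controls 1 and 4, and the 3 cell division genes are lowest in control 3.

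Liver genes were high in control 1 alone. Albumin (Alb) was 492, 1.62, 7.68 and 11.0 CPM, the fetal serum protein Afp was 199, 0.475, 1.20 and 6.27 CPM and the carrier protein Ahsg was 70.6, 0.317, 8.04 and 3.89 CPM. Control 1 was at least 2-fold above every other control for 12 of 12 hepatocyte genes, where 0.521% of all genes met that rule. The apolipoprotein gene Apoa1 was 33.4, 0, 2.30 and 1.79 CPM, and with no read in control 2 the difference there was at least 351-fold. Control 2, the lowest control for 25% of all genes, was the lowest for 12 of 12 of these, tied with control 3 at no read for Ttr. It was at least 2-fold below each other control for 10 of them, against 1.25% of all genes. The remaining spread was not only in control 1, since Alb in controls 3 and 4 was still above control 2. Whether liver tissue in the sample had a part in these values was not tested.

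Keratins of stratified epithelium were also high in control 1. Krt13 and Krt4, the keratins of the esophagus and other internal stratified linings, were 101, 0.761, 0.434 and 1.23 CPM and 146, 3.17, 1.07 and 4.85 CPM, and the desmosome protein Dsg3 was 9.18, 0, 0 and 0.0397 CPM. In the same library stood the basal cell genes Krt5 at 21.7, 0.0317, 0.667 and 1.27 CPM, Trp63, the factor that maintains basal cells, at 5.47, 1.87, 2.30 and 1.91 CPM, and Krt17 at 3.80, 1.17, 0.768 and 0.874 CPM, which were at least 2-fold above every other control. Krt15, the most abundant basal gene, differed less at 173, 114, 100.01 and 99.8 CPM, and Ngfr, the nerve growth factor receptor that also marks basal cells, was 4.44, 1.71, 4.27 and 5.44 CPM and was not highest there. Krt5 in the other 3 controls lay between 0.0317 and 1.27 CPM, and its mean of 10.1 TPM thus rested on 1 library. The skin keratin Krt1 and the cornified protein Lor were 1.32, 0.317, 0.467 and 0.318 CPM and 3.08, 2.06, 0.267 and 1.47 CPM. By the 2-fold rule control 1 was thus above every other control for 3 of 7 basal genes, against 0.521% of all genes. Whether stratified epithelium from outside the lung had a part was not tested.

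Control 3 was lowest for genes of cell division. All 24 cell cycle genes had their lowest value there, against 37.2% of all genes, and 22 were at least 2-fold below every other control, where 4.69% of all genes were lower by that rule. The proliferation marker Mki67 was 628, 472, 179 and 514 CPM, the topoisomerase Top2a was 438, 332, 99.98 and 357 CPM and the replication clamp Pcna was 122, 133, 36.8 and 91.9 CPM. The helicase subunit Mcm5 was 79.7, 70.9, 8.38 and 51.4 CPM and the nucleotide enzyme Rrm2 was 71.9, 84.1, 13.4 and 56.2 CPM. In the other 3 controls the mean log2 CPM of the list lay between 6.31 and 6.66, against 4.66 in control 3. Ccne1, the cyclin of entry into DNA synthesis, was 12.8, 12.96, 0.601 and 5.76 CPM. Outside the cell cycle list, genes that were lower in control 3 included Ptma (prothymosin) at 1141, 1214, 489.8 and 983 CPM, Tmsb10 (thymosin beta 10) at 555, 752, 221 and 542 CPM and Cldn6, a claudin of embryonic epithelium, at 43.0, 35.9, 1.84 and 32.3 CPM, the last 2 chosen after their values were seen. Ibsp, a bone matrix protein, had no read in control 3 and was 7.90, 6.21, 0 and 7.82 CPM over the 4, and the ATP receptor gene P2rx2 was 9.65, 6.69, 0.267 and 4.13 CPM.

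Genes of several inducible programmes were highest in that same control. Control 3 was at least 2-fold above every other control for 11 of 20 interferon-stimulated genes, 7 of 17 hypoxia and glycolysis genes and 4 of 10 glucocorticoid-induced genes, where 2.36% of all genes met the rule. The antiviral genes Ifit1, Ifit3 and Rsad2 were 0.940, 1.17, 29.1 and 3.26 CPM, 0.470, 0.824, 14.2 and 0.238 CPM and 3.08, 2.66, 27.4 and 5.12 CPM, and the ubiquitin-like modifier Isg15 was 0.854, 1.71, 9.21 and 2.03 CPM. Of the 20 interferon-stimulated genes, 19 had their highest value in control 3, against 35.9% of all genes. Not all of these were apart: Bst2, the most abundant gene of the list, was 29.4, 40.3, 45.8 and 26.9 CPM and Stat2 was 39.9, 47.0, 61.2 and 44.8 CPM. The guanosine triphosphatase gene Iigp1 was 55.3, 49.0, 40.6 and 37.6 CPM, highest in control 1.

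All 17 hypoxia and glycolysis genes had their highest value in control 3, against 35.9% of all genes. The mitophagy gene Bnip3 was 30.1, 26.1, 163 and 37.9 CPM, the glucose transporter Slc2a1 was 71.6, 64.6, 198 and 89.4 CPM, the glycolytic enzyme Aldoa was 274, 300.4, 1026 and 422 CPM and the vasodilator peptide Adm was 4.49, 5.36, 28.3 and 8.02 CPM. Control 4 was the next highest for several of these, such as Pdk1 at 91.8, 82.0, 283 and 145 CPM and Pgk1 at 168, 138, 382 and 275 CPM. Of the glucocorticoid-induced genes, Klf9 was 62.8, 51.6, 212 and 64.1 CPM. Pdk4, which redirects fuel from glucose to fat, was 15.8, 11.7, 58.2 and 29.0 CPM. Cdkn1a, the cell cycle inhibitor p21, was 18.6, 16.0, 53.0 and 20.1 CPM. Fkbp5 and Tsc22d3 of the same list were 108, 96.2, 103 and 124 CPM and 97.8, 108, 142 and 99.96 CPM and were not apart. Whether glucocorticoid had a part in these values was not tested. Heat shock genes were mostly steady, with Hspa8 at 1392, 1687, 1468 and 1230.2 CPM, and only Hspa1a and Hspa1b, near-identical copies, differed 4-fold, with Hspa1b at 3.93, 3.04, 13.3 and 6.31 CPM. Of the immediate early genes, Fos was 4.57, 6.34, 24.2 and 5.80 CPM and Egr1 was 14.6, 9.89, 14.9 and 19.2 CPM, so control 3 was apart for the first and not for the second.

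Outside those programmes, control 3 was at least 2-fold above every other control for 2 of 20 collagen and elastic fibre genes, Eln and Lox, and for 4 of 14 erythroid genes, where 2.36% of all genes met the rule. Eln was 3575, 4135, 10184 and 4396 CPM, Lox, which crosslinks elastin and collagen, was 879, 945, 2195 and 859.7 CPM, Inmt, a methyltransferase abundant in adult mouse lung, was 1.28, 3.80, 78.3 and 5.20 CPM and the chitinase-like Chil1 was 10.3, 13.8, 160.4 and 15.6 CPM. Inmt and Chil1 were chosen after their values were seen. The red cell membrane gene Slc4a1 was 14.7, 12.1, 95.8 and 35.7 CPM and the red cell factor Klf1 was 1.79, 0.761, 3.77 and 1.15 CPM, while the adult globins were within 2-fold over all controls. Of 30 lung transcription factors 2 (6.67%) were at least 2-fold lower in control 3 than in every other control, near the share of 4.69% over all genes. These were Etv4 and Id2, at 6.49, 5.86, 1.502 and 5.88 CPM and 160.4, 171, 60.0 and 128 CPM. The same rule held for 2 of 27 growth factor and morphogen genes (7.41%), also near that share. They were the Wnt ligands Wnt2 and Wnt7b, the latter at 45.9, 36.6, 14.9 and 38.1 CPM. Over the 30 transcription factors the mean log2 CPM was 6.55, 6.65, 6.24 and 6.40, with control 3 lowest for 17, as it was for 37.2% of all genes. Mitochondrial genes among the 50 highest were lowest in control 3, apart from mt-Co1 at 7326, 7128, 7244 and 7545 CPM. The cytochrome b gene mt-Cytb was 2333, 2168, 892 and 2284 CPM, mt-Nd1 was 1685, 1321, 839 and 1633 CPM and mt-Nd4 was 1110, 975, 545 and 988 CPM. The others, mt-Nd2, mt-Nd5 and mt-Nd6, were also lowest there. Mitochondrial genes together held 1.61%, 1.45%, 1.11% and 1.58% of the counts.

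Control 4 had the fewest genes to itself, and those of control 2 were mostly lower. Fgfbp3, a carrier of fibroblast growth factors, was 4.36, 15.7, 4.67 and 4.57 CPM and highest in control 2, whose deviation across genes correlated with exon length at r = -0.18. Control 2 was the lowest control for 11 of 15 smooth muscle genes, against 25% of all genes. Cnn1 (calponin), at 32.1, 8.87, 34.5 and 32.2 CPM, was the only gene of that list for which it was at least 2-fold below every other control, against 1.25% of all genes. Cartilage genes had a median of 3.40 TPM and mean log2 CPM of 3.32, 2.79, 2.35 and 3.64. Control 3 was the lowest for 8 of 10, against 37.2% of all genes, and the highest for none, against 35.9%. Col2a1, the cartilage collagen, was 9.53, 5.45, 7.91 and 19.6 CPM and highest in control 4, while Acan, the cartilage proteoglycan aggrecan, was 1.20, 0.317, 7.34 and 8.14 CPM and departed from the list by being higher in controls 3 and 4 than in both others. The innate defence gene Chil3 was lowest in control 4, at 1.58, 2.54, 2.57 and 0.477 CPM.

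**Figure D5:**
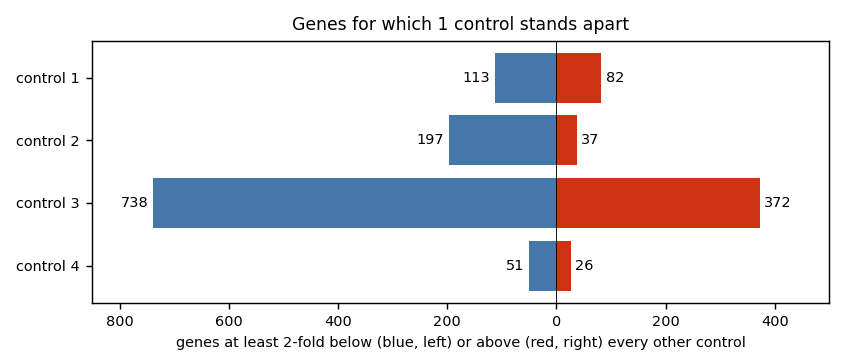
Number of genes, of 15740 with a mean of at least 1 CPM, for which 1 control was at least 2-fold above (right) or below (left) every other control. Control 3 has the most in both directions, 372 above and 738 below, and control 4 the fewest, 26 and 51.

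Promoter sequences were read for the programmes that set control 3 apart, because their genes share known control elements. The lists hold known members of these programmes, so a share with an element above that of all genes can follow from that choice. Such a share says nothing of control 3. Windows are the 250 bases before the RefSeq start of the gene on GRCm38.p6, printed 5′ to 3′ on the strand of the gene, and 27025 genes had 1. Both strands were searched, and no searched motif contains another. The first motif was the interferon-stimulated response element, the site that interferon-activated factors bind. It stood in 8 of the 14 interferon-stimulated genes with a window and in 6 of the 9 such genes for which control 3 was apart, against 3.46% of all genes. Capitals mark the element in 3 of the genes that were highest in control 3, Ifit1 (chr19:34640639-34640888, plus strand), Ifit3 (chr19:34583279-34583528, plus strand) and Isg15 (chr4:156200819-156201068, minus strand).
Ifit1: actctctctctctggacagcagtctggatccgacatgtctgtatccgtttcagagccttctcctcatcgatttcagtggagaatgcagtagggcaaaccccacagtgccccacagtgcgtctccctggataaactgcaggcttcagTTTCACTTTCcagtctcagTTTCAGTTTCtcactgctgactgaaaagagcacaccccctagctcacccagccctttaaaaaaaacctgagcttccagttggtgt
Ifit3: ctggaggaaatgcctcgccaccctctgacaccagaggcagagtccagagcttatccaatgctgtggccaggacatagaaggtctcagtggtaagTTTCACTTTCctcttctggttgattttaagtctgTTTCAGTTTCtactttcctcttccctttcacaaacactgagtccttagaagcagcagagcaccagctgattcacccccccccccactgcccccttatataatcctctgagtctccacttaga
Isg15: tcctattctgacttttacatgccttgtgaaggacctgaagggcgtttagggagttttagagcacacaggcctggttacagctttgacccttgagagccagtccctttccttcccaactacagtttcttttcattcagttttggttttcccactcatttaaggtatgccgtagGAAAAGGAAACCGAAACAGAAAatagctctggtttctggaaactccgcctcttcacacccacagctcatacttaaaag
Ifit1 and Ifit3 hold 2 matches each, and Isg15 holds 3.

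For the cell cycle genes, the E2F site, bound by factors that switch on DNA synthesis genes, was searched as TTTCGCGC or TTTGGCGC. It stood in 3 of the 19 genes with a window, Cdk1, Mcm5 and Mcm6, against 0.759% of all genes. The cell cycle genes homology region, the element of late cell cycle genes, was searched as TTTGAA and stood in 6 of 19, against 18.3% of all genes. The replication helicase genes Mcm5 (chr8:75109259-75109508, plus strand) and Mcm6 (chr1:128359706-128359955, minus strand) are shown with the E2F letters in capitals, because both were lowest in control 3.
Mcm5: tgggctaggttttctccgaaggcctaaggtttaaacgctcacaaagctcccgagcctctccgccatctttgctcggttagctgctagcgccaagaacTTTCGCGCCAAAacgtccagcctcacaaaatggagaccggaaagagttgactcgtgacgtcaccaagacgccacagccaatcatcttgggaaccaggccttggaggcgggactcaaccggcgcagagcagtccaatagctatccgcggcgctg
Mcm6: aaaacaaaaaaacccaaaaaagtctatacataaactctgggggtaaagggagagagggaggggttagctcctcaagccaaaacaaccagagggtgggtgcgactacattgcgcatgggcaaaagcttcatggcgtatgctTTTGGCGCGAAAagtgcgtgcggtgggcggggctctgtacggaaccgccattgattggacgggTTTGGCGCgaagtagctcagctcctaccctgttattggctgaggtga
The hypoxia response core was searched as ACGTG and stood in 12 of 16 hypoxia and glycolysis genes with a window, against 18.49% of all genes. Ankrd37 (chr8:45999851-46000100, minus strand), a hypoxia-inducible gene at 13.8, 14.9, 37.6 and 13.3 CPM, is shown with the core in capitals.
Ankrd37: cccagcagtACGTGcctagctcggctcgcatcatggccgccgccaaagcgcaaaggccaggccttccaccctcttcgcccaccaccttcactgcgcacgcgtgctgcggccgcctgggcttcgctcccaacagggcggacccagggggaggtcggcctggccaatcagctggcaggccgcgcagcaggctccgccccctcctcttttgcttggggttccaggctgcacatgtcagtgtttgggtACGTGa
A match of letters describes the window and is neither a bound site nor a cause, and a window without a match says nothing of sites elsewhere.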

How the data were processed

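RNA of whole lung was made by the authors into NexteraXT libraries, sequenced as 150-base read pairs and aligned to GRCm38 (mm10) with STAR. Each file deposited by the authors holds unnormalized gene counts, of which the column for both strands was used. Per the submitters' processing notes, STAR and DESeq2 were used, with no version, and the annotation is not given in the sources used here. Of 55385 gene IDs, 55144 matched GENCODE M21 without the version, which gave symbols, coordinates and exon lengths. The TO libraries were not used, and counts of 1 strand served as an alternative. Entries for unmapped (3.37% to 3.82%), multimapping (3.76% to 4.24%), genic-overlap (5.20% to 5.48%) and non-genic (10.8% to 13.9%) read pairs stayed out of library sizes. Counting was without strand, so overlapping antisense genes cannot be told apart.

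CPM used TMM factors over the 4 controls (edgeR 4.0.16, R 4.3.3), log2 CPM a prior count of 2, and TPM the union of exons. Genes with a mean of at least 1 CPM entered the comparisons among controls. Groups came from sample titles, and p-values were not computed, since 1 group was described. Nothing says whether the replicates came from separate litters, so their spread may leave out differences between litters. With 1 library for each control, biological and technical spread cannot be told apart.

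Named genes were the 25 nuclear and 3 mitochondrial genes of highest TPM, the 3 highest members of each list and members under 0.1 TPM, the 20 largest ranges at 5 CPM or more and the 10 largest at 100 CPM or more, the 5 highest and 5 lowest of each control against the median of the others, the 10 smallest ranges at 50 CPM or more, and listed genes that varied. Further genes were named for their known roles or after their values were seen. Genes at least 2-fold from every other control were counted by a rule added after seeing the data. The members, the 42 lists and the rules were chosen with earlier results of these data known. Alternatives were DESeq2 1.42.0 size factors, library size only, counts of 1 strand, other filters, lengths and prior counts, and each control left out. A listed gene is not reported here. Promoter windows came from RefSeq. Figures were drawn with matplotlib 3.10.9 in Python 3.11.15.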

Additional observations from a re-analysis of the deposited data

Results flagged for a closer look

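Each value below belongs to a control far from the other 3, by the gap to its nearest neighbour as a share of the whole range of the 4 log2 CPM values. Chance alone marks about 1 in 20 such groups of 4, and 19 of 202 values were marked, with genes named in the text for their differences among them. Control 3 was the far control for 12 of the 18 genes and control 4 for none. It was lowest for Ibsp (0.9493 of the range), Etv4 (0.9293), mt-Cytb (0.9237), Wnt2 (0.9124), Cldn6 (0.9088), Uchl1 (0.8601) and Etv5 (0.8357), and highest for Lox (0.8988), Ankrd37 (0.8942), Eef1a1 (0.8643), Chil1 (0.8486) and Klf9 (0.8462). Control 2 was the lowest for Cnn1 (0.9479), Acta1 (0.9341) and Calca (0.8696) and the highest for Fgfbp3 (0.9458) and Rps15 (0.9256). Calca and Rps15 differed little in size, with ranges of 0.15 and 0.32 log2 units. Control 1 was the highest for Dsg3 (0.9100) and for the mean of the thyroid and parathyroid list (0.8634), of whose 10 genes Iyd and Hhex alone had a mean of at least 1 CPM and whose defining hormone gene Tg was between 0.285 and 1.43 CPM.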

How the results depend on the processing

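Of the values recomputed under an alternative, 343 moved by less than their spread, or for counts by less than 1.5 times, and 32 moved further. The 977 genes that varied at least 4-fold became 367 without control 3, of which 333 were among the 977, and ranged from 367 to 873 as each control was left out. They became 7511 with every gene that had a read, 360 at a mean of at least 5 CPM and 4113 with a 2-fold rule. The 1296 genes that matched all others together in counts became 671 in TPM. Of the 25 genes of highest TPM with at least 200 exon bases, mitochondrial genes among them, 16 stayed with the median length of protein-coding transcripts. Of the 10 cell type and tissue lists with the highest median TPM, 8 stayed with the length of the longest transcript, and alveolar type 1 cells came first. The mean distance of control 3 to the others was 1.39 times that among the others and became 1.20 times over the 500 most variable genes, and no such ratio exists without control 3. The biological coefficient of variation ranged from 0.241 (without control 3) to 0.355 around 0.313, and the lists that ranged at least 2-fold from 10 (without control 3) to 15 around 17. With each control left out, mean log2 CPM ranged from 7.96 to 8.02 for matrix fibroblasts, 1.42 to 2.18 for thyroid and parathyroid and 5.29 to 5.51 for growth factors and morphogens. With counts of 1 strand, mean log2 CPM was 7.90 for matrix fibroblasts, 7.13 for blood vessel endothelium, 2.88 for nerve and Schwann cells and 7.27 for surfactant lipid genes.

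The alternatives for genes at least 2-fold from every other control were chosen after seeing the data. With counts of 1 strand, 191 genes were lower in control 1, 79 higher in control 2, and 49 higher and 80 lower in control 4. At a mean of at least 5 CPM, 19 were higher and 9 lower in control 1, 2 higher and 60 lower in control 2, 213 higher and 423 lower in control 3, and 2 higher and 1 lower in control 4. Apart from fewer genes or libraries being used, the cause was not tested. No paired analysis was possible because 1 group was described. At these depths 3 reads correspond to 0.0951 to 0.128 CPM, depending on the library. Nonzero values below that level of their library rest on fewer than 3 reads and are uncertain.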
